A study of Canis lupus with 24 samples.

Results

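Transcripts of 8 genes of the interferon system were followed in K9TCC, an established canine cell line of transitional cell carcinoma of the bladder: the interferon genes IFNL1, IL29L and IFNB1, the interferon regulatory factor genes IRF1, IRF3, IRF7 and IRF9, and the signal transducer gene STAT2. They were chosen by name, as the array features whose annotation gives exactly 1 gene symbol equal to one of these 8, out of 16295 genes with such a symbol. The names were chosen with earlier results of these data known. Each of the 8 had 1 feature, and all 8 were tested, with no filter on low values. Their signals come from 24 arrays (Affymetrix Canine Gene 1.1 ST), with 3 arrays for each of 8 groups.

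The groups cross culture form with treatment. Adherent cells were grown attached to plastic in medium with fetal bovine serum, and spheres, which the labels call cancer stem cell spheres, were kept without serum in plates of ultralow attachment, in medium holding insulin, transferrin, basic fibroblast growth factor and epidermal growth factor. Both forms were given 50 µM mavacoxib, an inhibitor of the prostaglandin-forming enzyme COX-2, or 0 µM (its vehicle DMSO alone) for 24 h. In the other arm the cells received COX-2 siRNA or negative siRNA, a control, with Lipofectamine RNAiMAX and were kept for 48 h. For that arm, per the labels' protocols, sphere cells too were seeded in anchorage-dependent conditions on the day before transfection. All groups are of 1 cell line. The labels do not say whether replicate arrays stand for separate cultures; p-values then measure only how far these samples spread, and that spread may be technical. RNA was taken from whole cultures, in which fewer cells of a type and less RNA per cell cannot be told apart.

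Interferons are secreted proteins that put neighbouring cells into an antiviral state. As known from human and mouse cells, foreign nucleic acid activates the kinases that phosphorylate IRF3, which is present beforehand, and IRF3 switches on IFNB1, the type I interferon beta gene, and the type III interferon lambda genes. Secreted interferon then acts through Janus kinases to bring STAT2 and IRF9 together in the factor ISGF3, which induces antiviral genes and IRF7; IRF7 in turn amplifies interferon transcription. IRF1 is induced by interferons and inflammatory cytokines and drives antigen presentation genes and, in epithelia, type III interferon.

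Values are log2 signals as deposited, without detection calls. The median of all values was 4.82, and a difference whose lower group lay under it may understate the change where that signal is background. A difference is given with its standard error from a limma fit over all 24 arrays, and a gene rose, fell, or was higher or lower where its Benjamini-Hochberg adjusted p over all 16295 genes was under 0.05. The number of arrays, 3 a group, limits the precision.

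PTGS2, the gene of COX-2, checks the siRNA label. It averaged 11.32 in adherent arrays labelled COX-2 siRNA against 10.99 with negative siRNA, and 11.47 against 10.31 in spheres, where it was higher (1.16 ± 0.13, limma adjusted p = 2.57e-07). With DMSO it averaged 9.60 in adherent cells, under both siRNA groups, and 12.11 in spheres, above both. PTGS2 was thus not lower than with negative siRNA where the label names its siRNA. These arrays are therefore called by their label, and each direction taken from them holds between labelled arrays. Epithelial identity was checked with 20 measured urothelial and epithelial markers, of which 11 exceeded 4.82 in every group, among them CDH1, GATA3, KRT7 and UPK1B. UPK3A read 11.31 in adherent cells with DMSO and 3.81 in spheres with DMSO, and KRT5 read 3.62 and 12.04, so the culture forms differ in differentiation markers. Of 14 leukocyte markers 12 never exceeded 4.82 as a group mean, with PTPRC at no more than 2.79. The exceptions were CD14 (5.14 to 8.56) and LYZ (4.99 to 9.41).

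**Figure D1:**
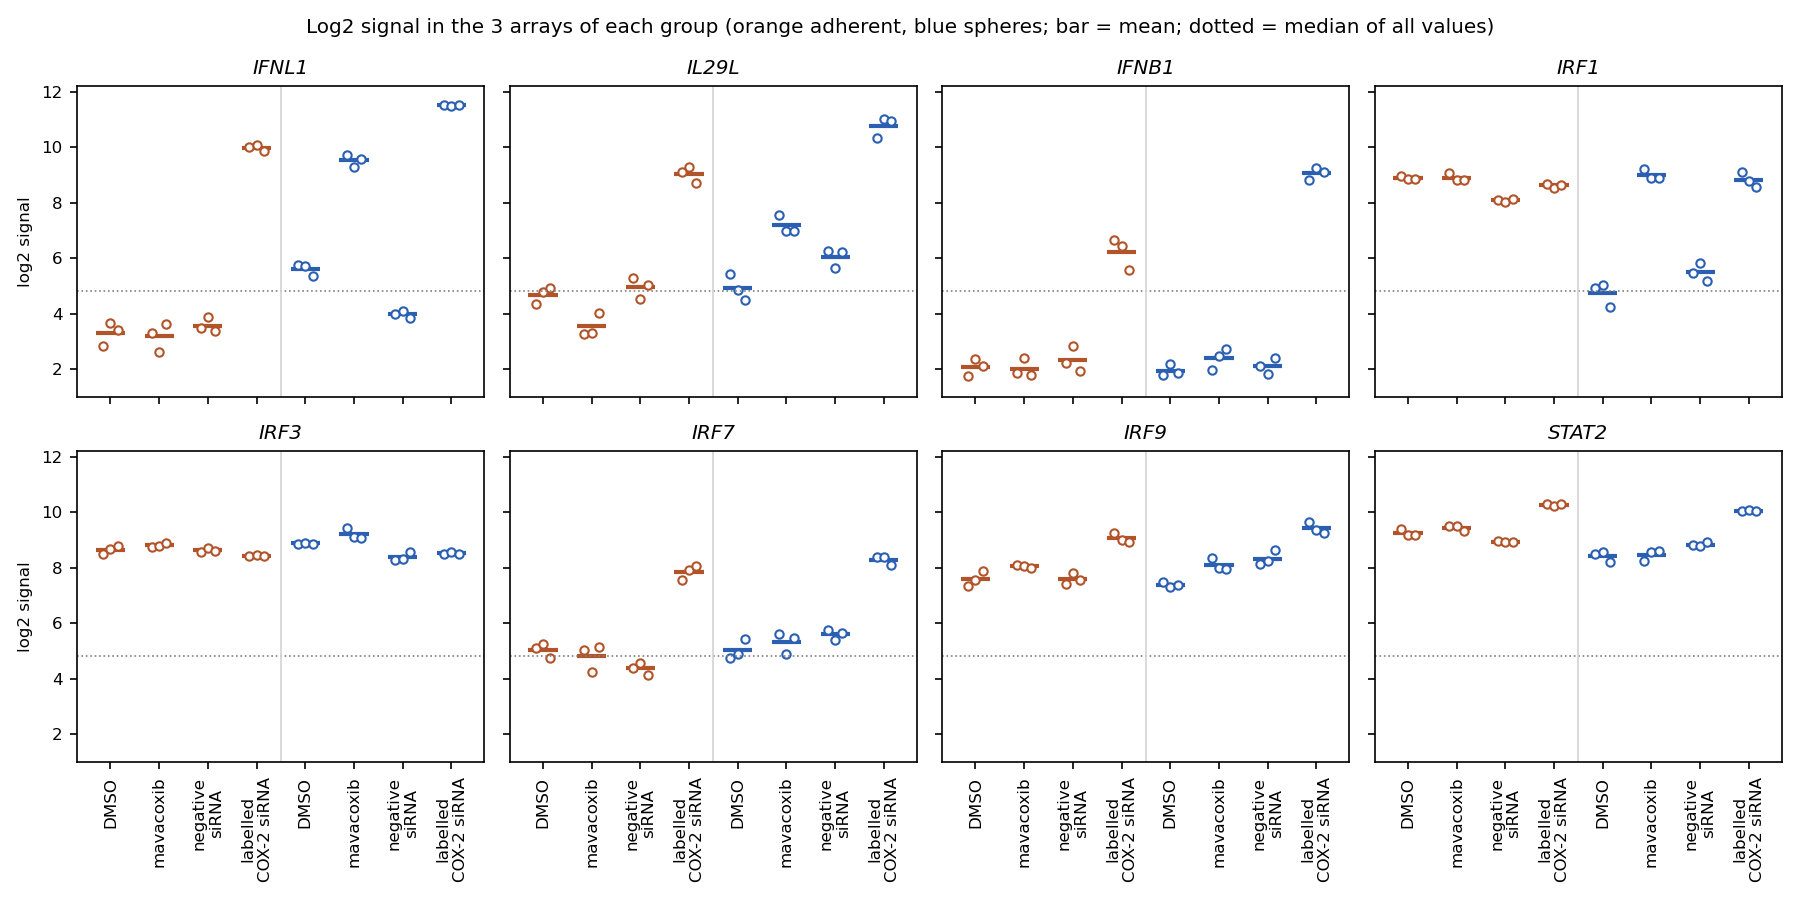
Each panel shows 1 gene, with the log2 signal on the vertical axis and the 8 groups on the horizontal axis; points are the 3 arrays of a group, bars their mean, and the dotted line the median of all values, 4.82. IFNL1, IL29L, IFNB1 and IRF7 stand highest in the arrays labelled COX-2 siRNA, IRF1 is low only in spheres with DMSO or negative siRNA, and IRF3 stays between 8.28 and 9.42.

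Of the interferon genes, IFNL1 encodes interferon lambda 1, a type III interferon that acts mainly on epithelia. Its 3 arrays read 11.51, 11.49 and 11.53 in spheres labelled COX-2 siRNA, and 10.00, 10.08 and 9.87 in adherent cells with that label. In spheres with mavacoxib they read 9.72, 9.27 and 9.57, and in spheres with DMSO 5.75, 5.72 and 5.36. These 4 groups did not overlap with one another or with the other four. Below them came spheres with negative siRNA (3.98, 4.11 and 3.86), adherent cells with negative siRNA (3.47, 3.89 and 3.36), with DMSO (2.82, 3.66 and 3.40) and with mavacoxib (3.30, 2.62 and 3.63), and neighbours in this lower part of the order overlapped.

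The difference for IFNL1 between labelled COX-2 siRNA and negative siRNA was 7.53 ± 0.22 in spheres, a 184-fold higher signal (limma adjusted p = 2.67e-17), and 6.41 ± 0.22 in adherent cells (adjusted p = 8.74e-16). Mavacoxib raised it by 3.91 ± 0.22 in spheres (adjusted p = 4.09e-11). In adherent cells the mavacoxib difference was -0.11 ± 0.22 with a 95% confidence interval from -0.56 to 0.34 and did not pass (adjusted p = 0.880). IFNL1 thus had a called mavacoxib change in spheres and none in adherent cells, and the difference between those changes itself passed at 4.02 ± 0.30 (adjusted p = 2.27e-08).

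IL29L is annotated as an interleukin 29-like gene; interleukin 29 is the older name of interferon lambda 1. Type III interferon genes are near copies of each other, so features annotated to IFNL1 and IL29L may share signal, which was not tested, since no probe sequences were used here. Its arrays read 10.33, 11.01 and 10.94 in spheres labelled COX-2 siRNA, and 9.11, 9.29 and 8.70 in adherent cells with that label. In spheres they read 7.56, 6.99 and 6.99 with mavacoxib and 5.42, 4.87 and 4.48 with DMSO. The first 3 places in the order of groups were those of IFNL1, with no overlap. Unlike IFNL1, IL29L stood higher in spheres with negative siRNA (6.26, 5.66 and 6.23) than in spheres with DMSO.

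IL29L was higher with the COX-2 siRNA label by 4.71 ± 0.27 in spheres (limma adjusted p = 6.62e-12) and by 4.08 ± 0.27 in adherent cells (adjusted p = 2.31e-10). It rose with mavacoxib in spheres by 2.26 ± 0.27 (adjusted p = 2.87e-06). In adherent cells it fell with mavacoxib, from 4.35, 4.78 and 4.91 with DMSO to 3.28, 3.30 and 4.04, a change of -1.14 ± 0.27 (adjusted p = 0.0162). Both group means lie under 4.82. The call was lost when array 2 or 3 with DMSO, or array 1 or 2 with mavacoxib, was left out (-1.09, -1.02, -1.01 and -1.02, adjusted p from 0.0690 to 0.0947). The mavacoxib changes of the culture forms differed by 3.40 ± 0.39 (adjusted p = 4.09e-06).

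IFNB1 encodes interferon beta, which signals through the type I receptor found on nearly all cells. It read 8.83, 9.25 and 9.11 in spheres labelled COX-2 siRNA and 6.64, 6.42 and 5.57 in adherent cells with that label. In the other 6 groups the 18 arrays ran from 1.75 to 2.82, far under 4.82, and each neighbouring pair of those groups overlapped. With the label IFNB1 was higher by 6.95 ± 0.26 in spheres (limma adjusted p = 2.54e-15) and by 3.88 ± 0.26 in adherent cells (adjusted p = 2.73e-10).

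The IFNB1 difference was larger in spheres than in adherent cells by 3.07 ± 0.37 (limma adjusted p = 6.06e-06). For IFNL1 the same contrast gave 1.12 ± 0.30 (adjusted p = 0.0154), and for IL29L 0.63 ± 0.39, which did not pass (adjusted p = 0.297, 95% confidence interval -0.17 to 1.43). Mavacoxib left no called change of IFNB1 in either form: in spheres the arrays read 1.98, 2.49 and 2.72 against 1.80, 2.17 and 1.85 with DMSO (0.46 ± 0.26, adjusted p = 0.255, 95% confidence interval -0.09 to 1.00), and in adherent cells the difference was -0.05 ± 0.26 (adjusted p = 0.963). In spheres the labelled siRNA difference exceeded the mavacoxib difference by 6.50 ± 0.37 for IFNB1 (adjusted p = 1.95e-11) and by 3.62 ± 0.30 for IFNL1 (adjusted p = 9.12e-09). These contrasts take in the gap between the sphere controls, negative siRNA and DMSO, which averaged 2.11 and 1.94 for IFNB1 and 3.98 and 5.61 for IFNL1.

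Other interferon genes were taken from a list of 17, of which 5 were measured. In spheres labelled COX-2 siRNA, where 39% of all genes passed, 3 were higher and 0 lower: the interferon alpha genes IFNA7 (5.10 ± 0.15) and IFNA5 (3.21 ± 0.17) and the epithelial interferon epsilon gene IFNE (1.64 ± 0.23). In adherent cells IFNA7 alone passed (2.17 ± 0.15, group means 6.44 and 4.27), and 1 of 5 lies near the 15% of all genes that passed there. IFNK, the interferon kappa gene, stood at -0.17 ± 0.18 in spheres and 0.16 ± 0.18 in adherent cells. With mavacoxib 0 rose in either form. IFNE fell in spheres from 3.38 to 2.61, by 0.76 ± 0.23 (limma adjusted p = 0.0184), 1 of 5 against 21.4% of all genes. All group means of IFNE, from 2.32 to 4.34, lie under 4.82, which limits its calls with mavacoxib and with the label.

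**Figure D2:**
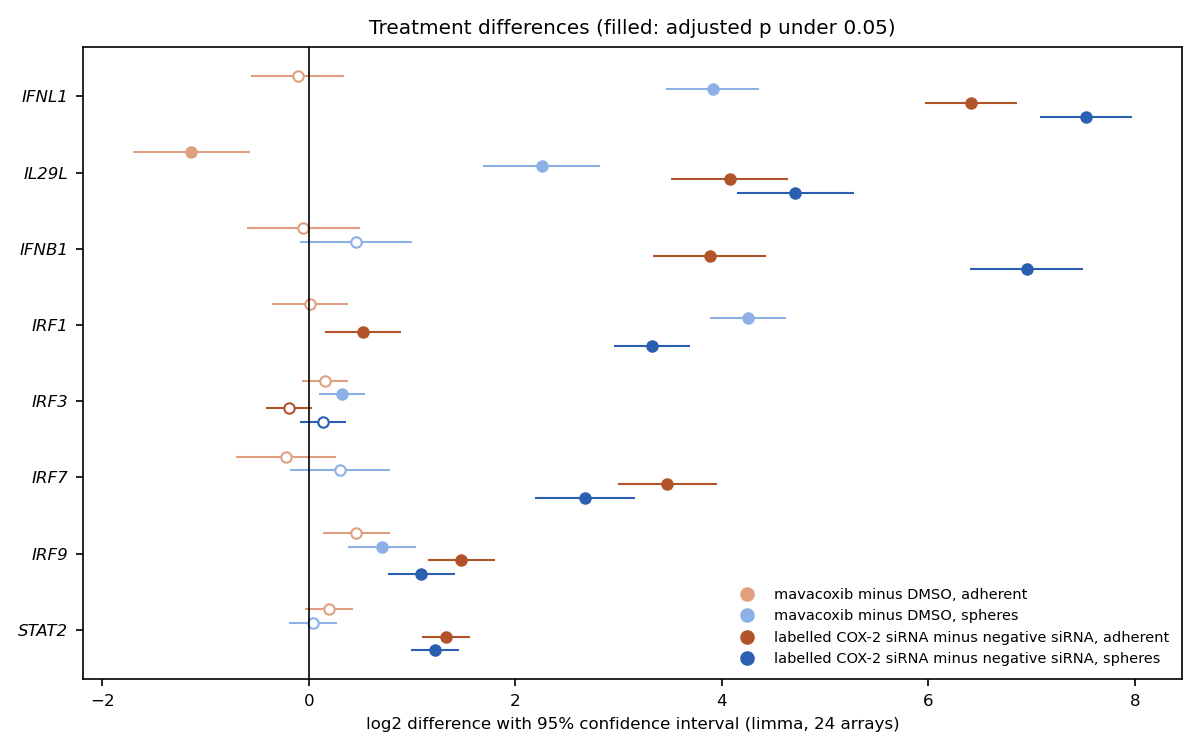
Log2 differences of the 8 genes (horizontal axis, with 95% confidence intervals from the limma fit) for mavacoxib against DMSO and labelled COX-2 siRNA against negative siRNA in each culture form; filled points passed an adjusted p of 0.05. The differences of the siRNA label run up to 7.53 for IFNL1 in spheres, mavacoxib in spheres reaches 3.91 for IFNL1 and 4.25 for IRF1, and mavacoxib in adherent cells passed for IL29L alone.

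IRF3, the factor that starts interferon transcription and is regulated mainly by phosphorylation, varied least. Its group means ran from 8.39 to 9.21, a span of 0.81, which exceeded that of 44.6% of all genes, whereas the span of IFNL1, 8.33, exceeded that of 99.97%. With the COX-2 siRNA label it read 8.42, 8.48 and 8.43 against 8.57, 8.72 and 8.61 in adherent cells (-0.19 ± 0.11, limma adjusted p = 0.262) and 8.50, 8.57 and 8.51 against 8.28, 8.32 and 8.58 in spheres (0.13 ± 0.11, adjusted p = 0.359). The 95% confidence intervals, -0.41 to 0.03 and -0.09 to 0.36, lie within 1 of 0 on the log2 scale. IRF3 was the member that did not pass in either comparison of the siRNA label.

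In spheres IRF3 rose with mavacoxib from 8.87, 8.91 and 8.87 to 9.42, 9.11 and 9.09, by 0.32 ± 0.11 or 1.25-fold (limma adjusted p = 0.0336). The call was lost after quantile normalization (0.27, adjusted p = 0.0972), with only the 6 arrays compared (adjusted p = 0.195), and without any 1 of DMSO arrays 1, 2 or 3 or mavacoxib array 1. Without mavacoxib array 1 the difference was 0.22. In adherent cells it stood at 0.15 ± 0.11 (adjusted p = 0.548).

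IRF7, the interferon-inducible amplifier, read 8.39, 8.38 and 8.12 in spheres labelled COX-2 siRNA and 7.55, 7.93 and 8.08 in adherent cells with that label. All 18 arrays of the other 6 groups lay between 4.14 and 5.78, with no overlap with the labelled groups. With the label it was higher by 3.47 ± 0.23 in adherent cells (limma adjusted p = 2.39e-10) and by 2.67 ± 0.23 in spheres (adjusted p = 6.63e-09). The larger adherent difference was not called against the sphere one (-0.80 ± 0.33, adjusted p = 0.108), and with only the 12 arrays of this contrast it passed (adjusted p = 0.0415). Mavacoxib gave no called change of IRF7, at 0.30 ± 0.23 in spheres (adjusted p = 0.430) and -0.22 ± 0.23 in adherent cells (adjusted p = 0.732).

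IRF9, the DNA-binding subunit of ISGF3, read 9.64, 9.38 and 9.25 in spheres labelled COX-2 siRNA against 8.13, 8.23 and 8.64 with negative siRNA. The adherent arrays read 9.25, 9.0 and 8.94 against 7.41, 7.80 and 7.55. The groups did not overlap in either form, and the differences were 1.09 ± 0.16 (limma adjusted p = 8.44e-06) and 1.48 ± 0.16 (adjusted p = 6.29e-07). IRF9 also rose with mavacoxib in spheres, from 7.50, 7.30 and 7.40 to 8.35, 8.0 and 7.97 (0.71 ± 0.16, adjusted p = 0.00231). In adherent cells the arrays with mavacoxib (8.12, 8.05 and 7.99) stood above those with DMSO (7.34, 7.57 and 7.87) without a call (0.46 ± 0.16, adjusted p = 0.111).

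STAT2, the subunit of ISGF3 that carries its activation domain, read 10.30, 10.23 and 10.30 in adherent cells labelled COX-2 siRNA against 8.97, 8.93 and 8.94 with negative siRNA. In spheres it read 10.05, 10.08 and 10.05 against 8.81, 8.79 and 8.92. STAT2 was higher with the label by 1.33 ± 0.11 in adherent cells (limma adjusted p = 1.30e-08) and by 1.22 ± 0.11 in spheres (adjusted p = 1.52e-08), and these differences were not called apart (-0.11 ± 0.16, 95% confidence interval -0.44 to 0.22, adjusted p = 0.703). With mavacoxib its change was 0.04 ± 0.11 in spheres (adjusted p = 0.856) and 0.20 ± 0.11 in adherent cells (adjusted p = 0.424).

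Counted over the 8 genes, 7 were higher and 0 lower with the COX-2 siRNA label in adherent cells, where 15% of all genes passed in either direction. The same count held in spheres, where 39% of all genes passed. Their median difference was 2.48 in adherent cells and 3.00 in spheres, against -0.05 and -0.04 for all genes. With mavacoxib in spheres 5 rose and 0 fell (IFNL1, IL29L, IRF1, IRF3 and IRF9), where 21.4% of all genes passed, with a median of 0.58 against -0.01 for all genes. With mavacoxib in adherent cells 0 rose and 1, IL29L, fell, where 4.12% of all genes passed, and 2 of the 8 had an unadjusted p under 0.05 in limma. Members and lists were chosen with earlier results of these data known, so counts set against the share of all genes are a description and no independent test. IFNL1 and IL29L, whose features may share signal, are counted as 2 members.

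IRF1, a factor induced by interferons and cytokines, had its low level in sphere controls. In spheres it read 4.94, 5.03 and 4.25 with DMSO and 5.46, 5.84 and 5.19 with negative siRNA. In adherent cells it read 8.96, 8.86 and 8.85 with DMSO and 8.09, 8.04 and 8.14 with negative siRNA. No sphere control overlapped an adherent control, and IRF1 was lower in spheres by 4.15 ± 0.18 with DMSO, given as -4.15 (limma adjusted p = 5.49e-15), and by 2.59 ± 0.18 with negative siRNA, given as -2.59 (adjusted p = 3.08e-11).

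After treatment the sphere arrays of IRF1 read like the adherent ones. With mavacoxib they read 9.20, 8.90 and 8.88 in spheres and 9.06, 8.81 and 8.83 in adherent cells, and with the COX-2 siRNA label 9.09, 8.79 and 8.58 in spheres and 8.68, 8.54 and 8.63 in adherent cells. The groups overlapped in both cases, and the differences between culture forms were 0.09 ± 0.18 (95% confidence interval -0.28 to 0.46, limma adjusted p = 0.725) and 0.20 ± 0.18 (-0.17 to 0.57, adjusted p = 0.368). These comparisons of treated spheres with treated adherent cells were added after the values were seen.

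The rise of IRF1 in spheres was 4.25 ± 0.18 with mavacoxib, or 19.1-fold (limma adjusted p = 8.46e-13), and the difference with the siRNA label was 3.32 ± 0.18 (adjusted p = 1.54e-12). IRF1 was the only member with a smaller difference for the siRNA label than for mavacoxib in spheres that passed (-0.93 ± 0.25, adjusted p = 0.00637). The treated sphere arrays overlapped, with means of 8.99 with mavacoxib and 8.82 with the label. Their controls averaged 4.74 with DMSO and 5.50 with negative siRNA, so much of this contrast lies in the controls. In adherent cells mavacoxib gave 0.01 ± 0.18 (adjusted p = 0.989, 95% confidence interval -0.36 to 0.38). The siRNA label gave 0.53 ± 0.18 there (adjusted p = 0.0489), a call that was lost with every array shifted to one median (adjusted p = 0.0514) and without any 1 of the 6 arrays (0.50 to 0.57, adjusted p from 0.0790 to 0.134). The changes of IRF1 differed between culture forms by 4.24 ± 0.25 for mavacoxib (adjusted p = 1.07e-09) and by 2.80 ± 0.25 for the siRNA label (adjusted p = 7.69e-08), and these contrasts use the same control arrays as the comparison of culture forms above. Counted over all members, 3 of 8 differed between culture forms in their mavacoxib change (IFNL1, IL29L and IRF1), where 10.3% of all genes did, and 3 of 8 in their difference with the siRNA label (IFNL1, IFNB1 and IRF1), where 15.3% did, all of them larger in spheres.

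**Figure D3:**
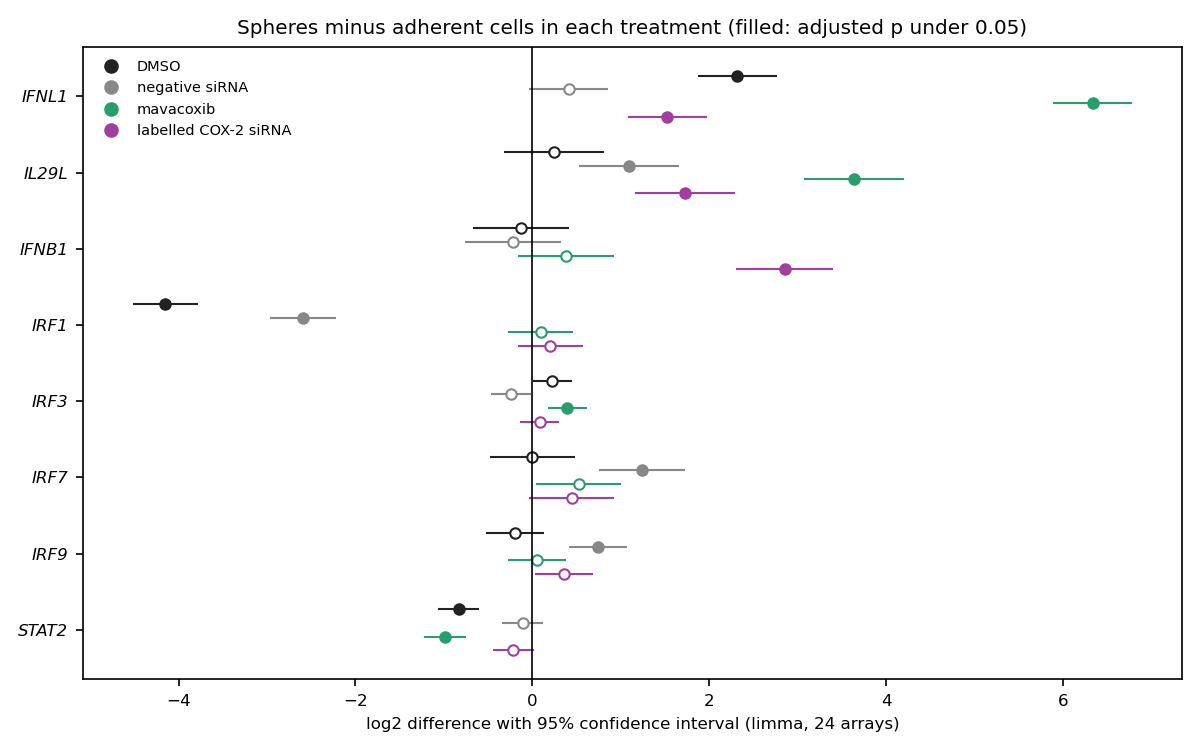
Log2 differences, spheres minus adherent cells, of the 8 genes in each of the 4 treatments, with 95% confidence intervals from the limma fit; filled points passed an adjusted p of 0.05. IRF1 lies at -4.15 with DMSO and -2.59 with negative siRNA and near 0 in the treated arrays, while IFNL1 is higher in spheres in 3 of the 4 treatments.

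Between the culture forms of the control groups, DMSO and negative siRNA, the other members differed in different directions. With DMSO IFNL1 was higher in spheres by 2.32 ± 0.22 (limma adjusted p = 4.78e-09), STAT2 was lower (8.51, 8.56 and 8.20 against 9.39, 9.20 and 9.18; -0.83 ± 0.11, adjusted p = 1.50e-06), and with IRF1 that made 1 higher and 2 lower of 8, where 46.1% of all genes passed. With negative siRNA 3 were higher in spheres and 1 lower, where 42.7% of all genes passed: IRF7 (1.24 ± 0.23), IL29L (1.09 ± 0.27), IRF9 (0.75 ± 0.16) and, lower, IRF1. The STAT2 difference with negative siRNA was -0.11 ± 0.11 and the IFNL1 difference 0.41 ± 0.22, and neither passed (adjusted p = 0.492 and 0.136). Both shares lie near the background of genes that differ between the culture forms.

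With mavacoxib 3 members of 8 were higher in spheres than in adherent cells and 1 lower, where 46.8% of all genes passed. With the COX-2 siRNA label 3 were higher and 0 lower, where 48% did. Both counts lie near the background of genes that differ between the culture forms. IFNL1 and IL29L were among the higher ones in both, at 6.34 ± 0.22 and 3.64 ± 0.27 with mavacoxib and at 1.53 ± 0.22 and 1.73 ± 0.27 with the label. IFNB1 was higher in spheres with the label (2.85 ± 0.26, limma adjusted p = 4.65e-09), and with mavacoxib it stood at 0.38 ± 0.26 (adjusted p = 0.259). STAT2 was lower in spheres with mavacoxib (-0.99 ± 0.11, adjusted p = 1.19e-07). IRF3 was higher there by 0.40 ± 0.11 (adjusted p = 0.00364), a call that was lost with every array shifted to one median (adjusted p = 0.0715).

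The control treatments were not alike for these genes in spheres. Negative siRNA arrays differ from DMSO arrays in transfection, in the siRNA, in time (48 h against 24 h) and, for spheres, in the anchorage-dependent seeding before transfection, which cannot be told apart. In spheres 4 members were higher and 2 lower with negative siRNA than with DMSO, where 35.3% of all genes passed. IRF9 (0.93 ± 0.16), STAT2 (0.42 ± 0.11), IL29L (1.13 ± 0.27) and IRF1 (0.76 ± 0.18) were higher, and IFNL1 (-1.63 ± 0.22, limma adjusted p = 2.64e-06) and IRF3 (-0.49 ± 0.11, adjusted p = 0.000878) were lower. The STAT2 call was lost with only the 6 arrays compared (adjusted p = 0.0624).

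In adherent cells IRF1 was the 1 member that differed between negative siRNA and DMSO (-0.80 ± 0.18, limma adjusted p = 0.00418), where 13.9% of all genes passed. IRF7 stood at -0.65 ± 0.23 (adjusted p = 0.0656) and STAT2 at -0.31 ± 0.11 (adjusted p = 0.0703), both without overlap of arrays and both called under some other settings. These comparisons share control arrays with the treatment comparisons, so a higher control lowers the treatment difference and the values are not independent.

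The arms of the siRNA label and mavacoxib differ in time (48 h against 24 h), transfection, control and, for spheres, seeding, which cannot be told apart. A difference of their differences also takes in the gap between their controls. For IFNL1 in spheres these averaged 3.98 with negative siRNA and 5.61 with DMSO. With these limits, the siRNA label and mavacoxib were compared within each culture form by the difference of their differences. In adherent cells it passed as larger for the siRNA label for 6 of 8 members and as smaller for 0, where 9.68% of all genes passed, with IFNL1 at 6.52 ± 0.30, IL29L at 5.22 ± 0.39, IFNB1 at 3.94 ± 0.37, IRF7 at 3.69 ± 0.33, STAT2 at 1.13 ± 0.16 and IRF9 at 1.02 ± 0.22. In spheres 5 passed as larger and 1 as smaller, where 32.1% of all genes passed. IRF7 (2.37 ± 0.33) and STAT2 (1.18 ± 0.16) were among the larger ones there, while IRF9 was not called apart (0.38 ± 0.22, limma adjusted p = 0.210, 95% confidence interval -0.08 to 0.85).

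The receptors and kinases that read interferon, and the sensors that lie upstream, were described from lists, whose counts are read against the share of all genes that passed: with the COX-2 siRNA label 39% in spheres and 15% in adherent cells, and with mavacoxib 21.4% and 4.12%. Of 6 measured receptor and Janus kinase genes, 3 were higher and 2 lower in spheres with the COX-2 siRNA label. They included the type I receptor subunit IFNAR2 (1.63 ± 0.16), JAK2 (1.33 ± 0.14) and TYK2, a kinase of the type I receptor (-0.59 ± 0.14). In spheres with DMSO, negative siRNA and the label, TYK2 read 6.97, 7.61 and 7.02, IFNAR2 6.77, 5.89 and 7.52, and JAK2 8.28, 8.09 and 9.42. In adherent cells 2 were higher and 1 lower with the label, and 0 passed with mavacoxib in either form. Of 22 sensors, adaptors and kinases, 12 were higher and 1 lower with the label in spheres and 6 and 0 in adherent cells, with medians of 0.46 and 0.03 against -0.04 and -0.05 for all genes. The RNA sensor genes DDX58 (RIG-I) and IFIH1 (MDA5) were higher with the label in both forms, by 4.61 ± 0.14 and 2.67 ± 0.14 in spheres and by 3.86 ± 0.14 and 2.31 ± 0.14 in adherent cells. With mavacoxib in spheres 5 rose and 3 fell: DDX58 rose by 2.43 ± 0.14, and TLR3, an endosomal RNA sensor, fell by 1.12 ± 0.18. With mavacoxib in adherent cells 1 of the 22 rose, DDX58 (0.58 ± 0.14).

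Counts of the other IRF and STAT genes lay near the shares of all genes that passed with the label, 39% in spheres and 15% in adherent cells. Among 8 measured, 4 were higher and 0 lower in spheres with the label, such as IRF2, an antagonist of IRF1 (1.47 ± 0.11), and STAT3 (1.13 ± 0.09). In adherent cells 1 was higher, STAT3 (0.37 ± 0.09). In spheres IRF2 read 9.02 with DMSO, 7.98 with negative siRNA and 9.45 with the label. STAT3 read 9.95, 9.10 and 10.23, so for both genes negative siRNA was also under DMSO. With mavacoxib 2 rose and 2 fell in spheres, where 21.4% of all genes passed, STAT3 rising by 0.56 ± 0.09 and IRF2 falling by 0.37 ± 0.11, and 0 passed in adherent cells. Of 7 genes whose proteins act with IRF3 and IRF7 at the IFNB1 enhancer, 5 were higher and 1 lower in spheres with the label (39% of all genes). With mavacoxib in spheres 4 rose and 0 fell (21.4% of all genes), for example the NF-kB subunit gene NFKB1 (0.99 ± 0.17) and JUN (1.28 ± 0.13), in the same arrays in which the IFNB1 change was not called. JUN alone was higher in adherent cells with the label (0.55 ± 0.13), 1 of 7 against 15% of all genes.

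Feedback inhibitors of interferon signalling had 7 higher and 1 lower of 14 with the label in spheres, where 39% of all genes passed, and 3 and 0 in adherent cells, where the 15% of all genes lies near that count. USP18, which blocks the type I receptor, was higher by 2.68 ± 0.20 in spheres and by 5.80 ± 0.20 in adherent cells. Its means with the label were alike, 9.33 in spheres and 9.17 in adherent cells. With negative siRNA they were 6.65 in spheres and 3.37, under 4.82, in adherent cells. TRIM21, a ubiquitin ligase that acts on IRF proteins, was higher by 1.07 ± 0.11 and 0.99 ± 0.11. With mavacoxib 4 rose and 1, TRIM21 (-0.35 ± 0.11), fell in spheres (21.4% of all genes passed). In adherent cells 2 rose (4.12%), USP18 by 0.98 ± 0.20, from 2.94 to 3.92, both under 4.82.

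Downstream, of 29 measured genes induced through ISGF3, 28 were higher with the COX-2 siRNA label in adherent cells and 29 in spheres, with 0 lower. Of all genes 15% and 39% passed there. The medians were 3.38 and 3.28 against -0.05 and -0.04 for all genes. The gene of this list that did not pass in adherent cells, SP110, stood at 0.34 and is named after its values were seen. With mavacoxib in spheres 12 rose, 3 fell and 14 did not pass, where 21.4% of all genes passed, and their median was 0.16 against -0.01 for all genes. OASL, an antiviral synthetase-like protein, rose by 2.13 ± 0.23 and IFI6, a mitochondrial antiviral protein, by 1.18 ± 0.16, whereas IFIT2, which binds viral RNA, stood at 0.00 ± 0.15. With mavacoxib in adherent cells, in which none of the 3 interferon genes rose, 7 of these 29 rose and 0 fell, where 4.12% of all genes passed, with a median of 0.36 against 0.04. OASL (1.20 ± 0.23, from 3.77 to 4.97) and DDX60, an RNA helicase (0.75 ± 0.15, from 3.17 to 3.92), were among them. Their means with DMSO lie under 4.82.

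Of 14 measured genes linked to IRF1, 8 were lower and 2 higher in spheres than in adherent cells with DMSO, where 46.1% of all genes passed, and their median was -1.61 against -0.03 for all genes. IDO1, the tryptophan-degrading enzyme, differed by -6.44, CXCL10, an interferon-induced chemokine, by -3.52 and PSMB9, an immunoproteasome subunit, by -2.95. With mavacoxib in spheres 8 rose and 0 fell, where 21.4% of all genes passed. CXCL10 rose from 4.25 to 7.59 (3.33 ± 0.19) and PSMB9 by 0.96 ± 0.13. IDO1 rose by 0.61 ± 0.15, from 2.93 to 3.53, both under 4.82, while GBP5, a guanylate-binding protein, stood at 0.19 ± 0.16. In adherent cells, where the change of IRF1 was not called, 0 rose with mavacoxib and 2 fell (4.12% of all genes passed), CXCL10 (-0.83 ± 0.19) and CIITA, the regulator of MHC class II genes (-0.82), the latter named after its values were seen. With the siRNA label 13 were higher in spheres and 11 in adherent cells, with 0 lower in either form, where 39% and 15% of all genes passed.

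**Figure D4:**
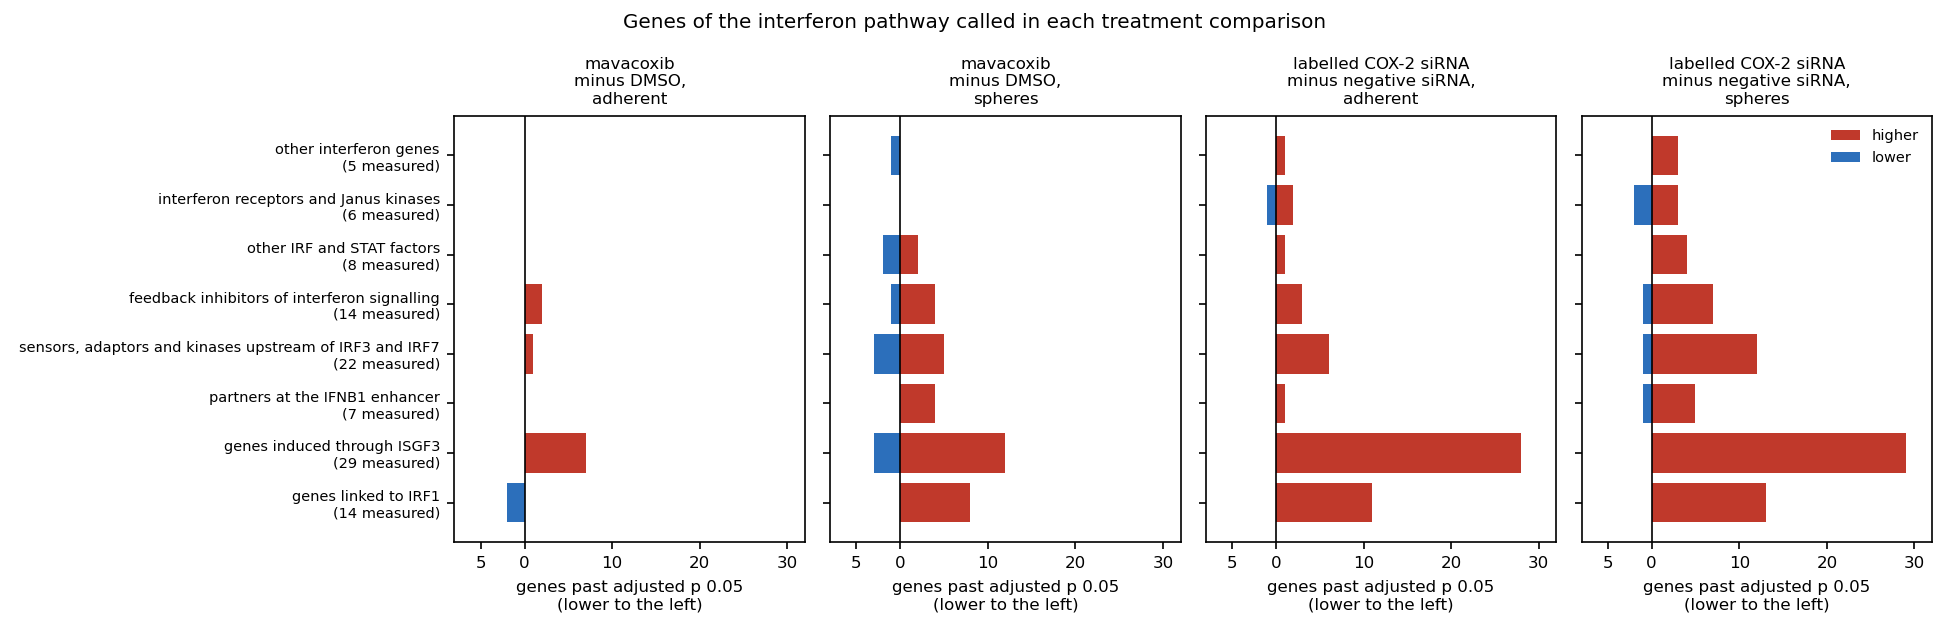
Number of genes of each list that were higher (red, to the right) or lower (blue, to the left) at an adjusted p under 0.05 in the 4 treatment comparisons, with the number measured beside each list. Genes induced through ISGF3 that were higher reach 28 of 29 in adherent cells and 29 of 29 in spheres with the COX-2 siRNA label, and 7 and 12 with mavacoxib. Of all genes 15% and 39% passed in either direction with the label, and 4.12% and 21.4% with mavacoxib.

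Markers of other cells that can make interferon were set beside these genes, and their part in the results was not tested. The mean log2 signal of the 14 leukocyte markers ran from 3.28 to 3.91 over all 24 arrays and was highest in spheres with DMSO (3.63 to 3.91). Of these 14, 0 were higher and 2 lower with mavacoxib in spheres, where 21.4% of all genes passed. In these arrays, in which IFNL1, IL29L and IRF1 rose, CD14 went from 8.56 to 6.21 (-2.35 ± 0.15) and LYZ from 9.41 to 7.68 (-1.72 ± 0.19). The mean of 7 markers of plasmacytoid dendritic cells ran from 4.60 to 5.06, with 4.78 to 4.88 in spheres labelled COX-2 siRNA and 4.66 to 4.94 in spheres with negative siRNA. Of these 7, 3 never exceeded the median of all values as a group mean, among them the surface receptor gene IL3RA (at most 3.01). CCDC50 (9.79 to 10.62) exceeded it in 8 groups and SIGLEC1 (4.62 to 7.20) in 5. IRF8 (3.02 to 5.53) did so in 2 and TCF4 (3.30 to 4.98) in 1. With the COX-2 siRNA label 2 of the 7 were higher and 1 lower in spheres (39% of all genes passed). In adherent cells 1 was higher and 0 lower with the label (15%). With mavacoxib 1 of the 7 fell in spheres (21.4%) and 0 passed in adherent cells (4.12%). These counts of plasmacytoid dendritic cell markers lie near the shares of all genes. The mean of 10 fibroblast markers ran from 3.74 to 4.60. With mavacoxib in spheres 1 rose, COL1A1 (4.95 to 5.85), and 1 fell, PDGFRA (9.56 to 8.82), a share near the 21.4% of all genes.

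The genes most like each member over the 8 group means were listed by Pearson correlation, as a description over 8 points that share the arrays. For IFNL1 they were the chemokine gene CCL5 (0.986), LOC479911 (0.986) and LOC488947 (0.986), and CCL5 shared the step with mavacoxib in spheres (8.77 against 5.79 with DMSO). For IL29L they were CD274, the gene of the checkpoint ligand PD-L1 (0.982), ZNFX1 (0.966) and ID4 (0.962). IFNB1 was followed by the guanylate-binding genes GBP5 (0.999) and GBP1 (0.991) and by LOC100682977 (0.991). GBP5 read 8.97 in spheres and 6.06 in adherent cells with the label and between 2.12 and 2.42 in the other groups.

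The pattern of IRF7 was closest to BATF2, a basic leucine zipper factor (0.994), MX2, an antiviral GTPase (0.993), and DTX3L (0.992), and that of IRF9 to OAS3, which makes the second messenger of RNA decay (0.985), UBE2L6, the ISG15-conjugating enzyme (0.974), and DTX3L (0.961). STAT2 was nearest to RICTOR, a subunit of mTOR complex 2 (0.981), PARP12 (0.979) and DHX58, a relative of RIG-I (0.974). For IRF1 the nearest genes were the antiproliferative gene BTG2 (0.978), the pseudokinase gene TRIB1 (0.971) and FOXN2 (0.962). BTG2 read 6.21 with DMSO and 8.15 with mavacoxib in spheres, and 8.54 and 8.16 in adherent cells. IRF3 was closest to SH3BP2 (0.980), SUSD6 (0.954) and ACSL1 (0.946).

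Among the members themselves, IFNB1 correlated with IRF7 at 0.945 and with IFNL1 at 0.808 over the 8 group means, IRF7 with IRF9 at 0.939, and IFNL1 with IL29L at 0.926. IRF1 correlated with IFNL1 at 0.295 and with IRF7 at 0.236. IRF3 ran from -0.613 with STAT2 to 0.132 with IRF1.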

How the data were processed

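Total RNA of 24 samples was measured on 1-colour Affymetrix Canine Gene 1.1 ST arrays. The authors deposited log2 signals, 1 value for each feature and array. The submitters' processing notes name Affymetrix Expression Console 1.1, while its settings for summarisation, background and normalization were not given in the sources used here. Of 27766 features 16878 carried 1 gene symbol, 289 several entries and 10599 none; the feature with the highest mean was kept per gene, which left 16295 genes. Symbols are those of the platform annotation; 6 of the 8 members are listed in the RefSeq genes of mCanLup2.hap1.

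With limma 3.58.1 (R 4.3.3), 1 mean per group was estimated from all 24 arrays (lmFit, contrasts.fit); eBayes added 5.54 prior to 16 residual degrees of freedom, with two-sided tests for 14 comparisons and Benjamini-Hochberg adjustment over all genes. The members, lists and comparisons were chosen with earlier results of these data known, and 2 comparisons of treated culture forms were added after the values were seen. Named are all members, PTGS2, up to 4 genes per list, those lowest in adjusted p over the 4 treatment comparisons, and the 3 genes most like each member by Pearson correlation over group means, among 7178 genes whose group means span at least 1; cell type markers are named as a check. The fit was tested on simulated data. Alternatives were quantile normalization, one median, leaving out dim genes, the mean of a gene's features, only the arrays compared, trend and robust variance, a replicate block, and leaving out each array. Array medians ran from 4.68 to 5.02, and arrays of a group correlated at 0.988 to 0.997.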

Additional observations from a re-analysis of the deposited data

Results flagged for a closer look

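For 4 of the 8 genes the mavacoxib change, the difference with the siRNA label, or both differed between culture forms. The test was a limma contrast of the responses in the 2 culture forms, fitted over all 24 arrays with adjustment over all genes. For mavacoxib 3 of 8 were called, where 10.3% of all genes passed, and for the siRNA label 3 of 8, where 15.3% passed. The mavacoxib change was larger in spheres for IFNL1 by 4.02 (adjusted p = 2.27e-08), for IL29L by 3.40 (adjusted p = 4.09e-06) and for IRF1 by 4.24 (adjusted p = 1.07e-09). The difference of the arrays labelled COX-2 siRNA was larger in spheres for IFNL1 by 1.12 (adjusted p = 0.0154), for IFNB1 by 3.07 (adjusted p = 6.06e-06) and for IRF1 by 2.80 (adjusted p = 7.69e-08). For IRF1 the control arrays of the culture forms already differed, by -4.15 with DMSO and -2.59 with negative siRNA, and the treated arrays were not called apart.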

How the results depend on the processing

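Member differences were recomputed 1648 times over the alternatives. Of these 1603 kept their direction and their side of the threshold, 19 lost a call and 26 gained one; 0 called values changed direction, and 32 values that were not called changed sign. The number of members called moved by more than 1.5 times in 2 comparisons. For negative siRNA against DMSO in adherent cells it was 1 as reported, 2 after quantile normalization and with only the arrays compared, and 3 with dim genes left out or with trend and robust variance. For mavacoxib in adherent cells it ran from 0 to 1 when arrays were left out, the call in question being that of IL29L. Among 30 pairs of arrays with equal replicate numbers, 9 had a correlation above 0.1 after removal of group means (-0.171 to 0.266). Pairs of unequal number were not compared, so these values do not show whether equal numbers pair the arrays. With equal replicate numbers as a block no member gained or lost a call, so 7 members were called in each comparison of the siRNA label and 5 with mavacoxib in spheres. Of the counts of all genes behind the background shares, mavacoxib in adherent cells gave 671 genes, and from 344 (without DMSO array 1) to 991 (dim genes left out). Mavacoxib in spheres gave 3491 genes, and 1904 with only the arrays compared. The siRNA label in adherent cells gave 2445, and 1566 without negative siRNA array 3. Negative siRNA against DMSO in adherent cells gave 2257, and 1427 without DMSO array 2. Shifting every array to one median moved the median difference of all genes between culture forms from -0.04 to -0.30 with the siRNA label, and STAT2 was then lower in spheres at -0.48 (adjusted p = 0.000740). The share of called genes that were higher moved by over 10 percentage points under a scaling alternative in the comparisons that follow. After quantile normalization it went from 63.5% to 53.3% for mavacoxib and from 63.1% to 52.4% for negative siRNA against DMSO, both in adherent cells. With one median it went from 40.4% to 28.7% for the siRNA label in spheres, and for culture form from 49.5% to 33.6% with DMSO, 48.1% to 34.1% with negative siRNA, 47.1% to 34.6% with mavacoxib and 46.3% to 24.6% with the label. It went from 44.2% to 26.6% for the label's difference between culture forms and from 41.6% to 26.4% for the label against mavacoxib in spheres. The cause of these moves was not tested. Signals under the median of all values carry no detection call, which limits IFNB1, IFNL1 and IL29L in their low groups, IRF1 in spheres with DMSO (4.74) and IRF7 in its groups under 4.82, among them adherent cells with negative siRNA (4.38). The same limit holds for list genes in their low groups, such as IFNE, IFIT2, OASL, DDX60, USP18 and IDO1.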
